A study of Mus musculus with 4 samples.

Results

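The SOCS, STAT3 and cytokine feedback genes are 10 genes, Socs1, Socs2, Socs3, Cish, Stat3, Jak2, Il4ra, Pim1, Nfil3 and Sbno2. Every probe set was taken whose array annotation names one of these genes and no other, which gave 27 probe sets of the 45037 that are not controls. All 10 genes had at least 1 probe set bright enough to test, and 24 of the 27 probe sets were tested. The cells were mouse macrophages cultured from bone marrow for 7 days in medium with L-cell supernatant (20%), which supplies M-CSF, and then kept overnight without it. All cells, in both groups, received interferon-gamma (100 U/ml) overnight as a priming step and were washed before stimulation. The LPS plus immune complexes group (2 arrays) then received lipopolysaccharide at 10 ng/ml together with immune complexes for 2 h, which the series calls type II activation. The LPS group (2 arrays) received the same dose of lipopolysaccharide alone for 2 h, which the series calls classical activation. Single arrays are called LPS_IC replicate 1 and 2 and LPS replicate 1 and 2. Every culture was thus both primed and given LPS, and no unprimed or unstimulated culture was analysed here. Strain, sex and age of the mice and the make-up of the immune complexes are not given in the sources used here, and nothing states that the arrays of a group came from separate cultures, so p-values measure only the spread between these arrays.

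Cytokines that signal through JAK kinases switch on the genes of their own inhibitors. A receptor bound by its cytokine activates JAK kinases, these phosphorylate STAT proteins, and STAT dimers enter the nucleus and induce target genes, among them the suppressors of cytokine signalling (SOCS proteins and CIS), which bind the receptor or the kinase and end the signal. In macrophages STAT3 carries the anti-inflammatory signal of interleukin-10, and Socs3, Nfil3, Sbno2, Il4ra and Pim1 are known STAT3-induced genes there or in other cells.

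The letters TTCNNNGAA, the palindrome that STAT dimers recognise, were searched in the RefSeq promoter windows of these genes (GRCm38.p6, 250 bases before to 50 after a transcript start). Windows were found for 9 of the 10 genes, 12 windows in all, since Pim1 has 2 and Sbno2 3 of them. Socs2 had no window. The palindrome was in 4 of the 12 windows, those of Cish, Socs3 and 2 starts of Sbno2, so in 3 of 9 genes, while 8.3% of all 32851 windows and 9.55% of 27025 genes hold it. The stretches around these matches are shown because this palindrome is the element by which STATs are known to reach feedback genes. Each is 30 bases in the direction of the gene, with the palindrome in capitals.
Cish, chr9:107296654-107296683, plus strand: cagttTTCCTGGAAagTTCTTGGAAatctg
Socs3, chr11:117969502-117969531, minus strand: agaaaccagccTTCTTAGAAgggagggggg
Sbno2, first start with a match, chr10:80102710-80102739, minus strand: ggccgcgccccTTCGCAGAAgcggaagtgc
Sbno2, other start with a match, chr10:80101193-80101222, minus strand: cccggctctgcTTCCCGGAAtgcctgtgag
Cish holds 2 palindromes, which begin at bases 1 and 12 of the annotated transcript. The Socs3 match begins 154 bases upstream of its start, and the Sbno2 matches begin 26 and 24 bases upstream of theirs. The palindrome reads the same on both strands and overlapped no other motif searched. The AP-1 motif TGANTCA and the cAMP response element TGACGTCA, also the same on both strands, were in 0 of the 12 windows, against 7.81% and 1.79% of all windows. A match is a description of the letters, and binding was not measured.

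The signals are MAS 5.0 values, 1 linear reading per probe set and array, scaled by the authors so that the mean without the extreme 2% at each end is 500 on every array. All 7 macrophage markers were bright (mean signals of at least 1307), and no T cell marker read above 94.2. The first LPS plus immune complexes array stood apart at low signals, with a median of 155.4 and a 5th percentile of 28.1, while the other 3 arrays had medians from 68.2 to 88.3 and 5th percentiles from 3.3 to 7.9. The summed readings of T cell, B cell, neutrophil, fibroblast and dendritic cell markers were highest on it too (223.1, 391.7, 318.2, 666 and 616.7), and on the other arrays no such sum was above 309. Cd79a, Pdgfra and Zbtb46 gave the largest of these readings on that array (284.6, 335.8 and 311). Every measured marker of these cell types was highest on it except Cd79b, Mpo and Col1a1, which were lowest on it. The part of these raised readings in the results below was not tested. Fewer cells of a type and less RNA per cell cannot be told apart in such samples.

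Adding immune complexes changed none of the 10 feedback genes past the threshold. A gene stood by its brightest tested probe set, and was called when limma's moderated test on log2(signal + 32) gave a Benjamini-Hochberg adjusted p under 0.05 over all 27022 tested probe sets. By this rule 0 of the 10 genes were called, beside 0.0621% of all 12891 tested genes. At an unadjusted limma p under 0.05 the count was again 0 of 10, beside 3.13% of all tested genes, and all 24 probe sets had an adjusted p of 1 in limma. By probe set the calls were 0 of 24, beside 0.0518% of all tested probe sets, and 0 of 24 at the unadjusted p, beside 2.81%. The fold changes of the 10 genes lay between -0.74 and 0.54 on the log2 scale, with a median of -0.21 (median over all tested genes 0.05). For 6 of the 10 the 95% interval left out a change of 2-fold on this scale in either direction, and for the others, Socs2, Cish, Jak2 and Sbno2, it did not.

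**Figure D1:**
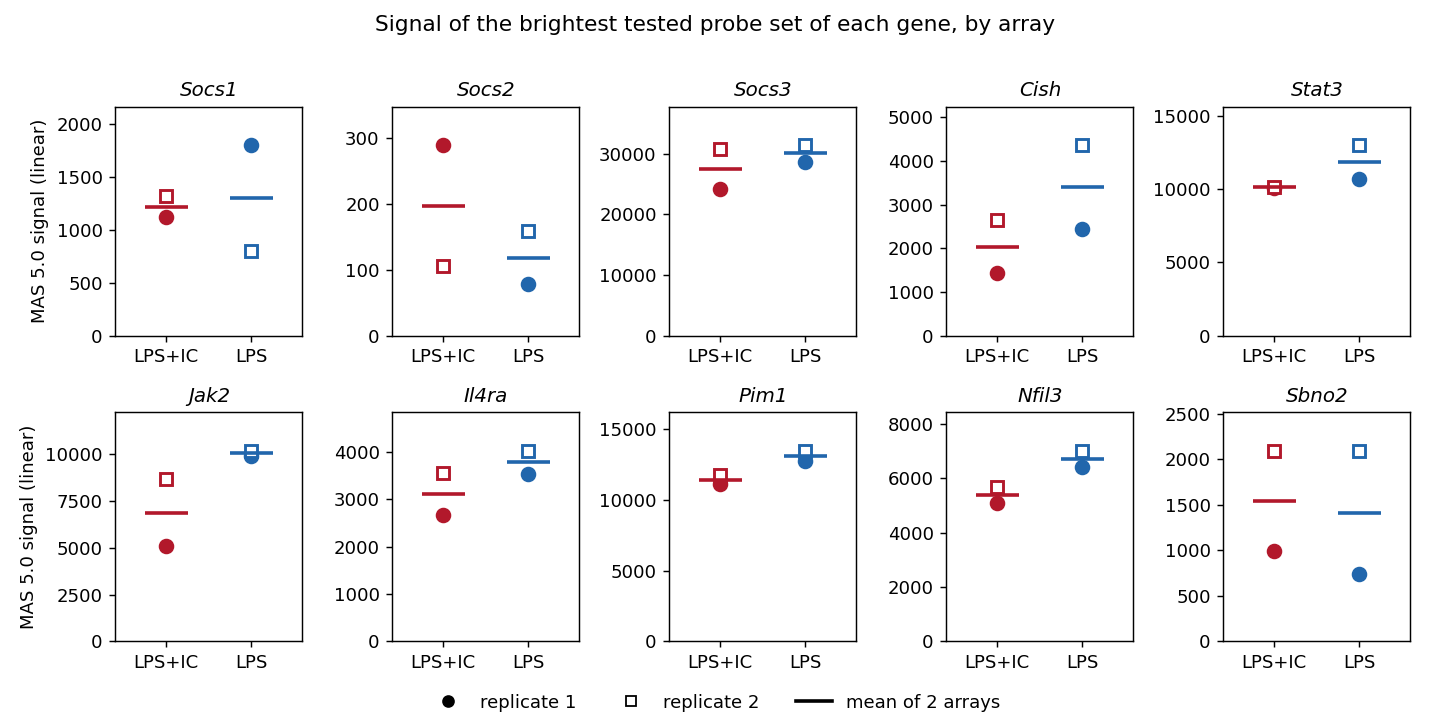
Signal (linear MAS 5.0 units, each axis starting at 0) of the brightest tested probe set of each of the 10 genes on the LPS plus immune complexes arrays (left, red) and the LPS arrays (right, blue), with filled circles for replicate 1, open squares for replicate 2 and a bar for the mean of 2 arrays. The groups do not overlap for Stat3, Jak2, Pim1 and Nfil3, all lower with immune complexes, while Sbno2 separates by replicate number.

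Among the inhibitors, Socs3, which blocks JAK kinases at gp130-type receptors and is itself induced by STAT3, was bright on every array. Its brightest probe set read 24237 and 30782 with LPS plus immune complexes, against 28665 and 31487 with LPS. The groups overlapped, and the log2 fold change was -0.14 ± 0.23 (SE), with a 95% interval from -0.63 to 0.36. The other Socs3 probe sets had log2 fold changes of -0.04 ± 0.24 and -0.13 ± 0.27. All 3 probe sets were read on the same arrays, so they are not independent measures. In linear terms the interval of the brightest probe set runs from 0.645-fold to 1.28-fold. The sign of its small difference turned with quantile normalization (0.10) and without the first LPS plus immune complexes array (0.04).

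Socs1, the inhibitor of interferon-gamma signalling, read 1123 and 1321 with LPS plus immune complexes, against 1805 and 798 with LPS. The LPS readings enclosed both others, and the log2 fold change was 0.02 ± 0.43, with a 95% interval from -0.93 to 0.96. The gap between the LPS arrays was 1.15 on the log2 scale. Without LPS replicate 1 the log2 fold change was 0.59, without LPS replicate 2 it was -0.56, without LPS_IC replicate 2 it was -0.10, and with median centring -0.18.

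Cish encodes CIS, which binds receptors that signal through STAT5. It read 1444 and 2640.3 with LPS plus immune complexes, against 2454 and 4371 with LPS. In each group replicate 2 was the higher reading, and the groups overlapped because the higher reading with immune complexes lay above the lower one with LPS. The log2 fold change was -0.74 ± 0.41, the lowest value among the 10 genes, with a 95% interval from -1.62 to 0.15. The unadjusted limma p was 0.0958. Leaving out an array moved this value to between -1.16, without LPS_IC replicate 2, and -0.31, without LPS_IC replicate 1. Without LPS replicate 1 it was -1.15, and without LPS replicate 2 -0.32.

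Socs2, a regulator of growth hormone receptor signalling, was dim. Its brightest probe set read 289.6 and 105 with LPS plus immune complexes, against 77.7 and 159 with LPS. The high reading was on the array with raised low signals, and the groups overlapped. The log2 fold change was 0.54 ± 0.62, with a 95% interval from -0.82 to 1.89. Without LPS replicate 2 it was -0.25, without LPS replicate 1 it was 0.14, without LPS_IC replicate 1 it was 0.28, and leaving out LPS_IC replicate 2 gave 1.15. Another 2 Socs2 probe sets were tested, with 0.51 ± 0.68 and 0.40 ± 0.69. The remaining 3 lay below the filter, with no reading above 59.8 on any array, and have no test.

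Of the transducers, Stat3, the transcription factor at the centre of the loop, was lower with immune complexes on both arrays. Its brightest probe set read 10089 and 10119 with LPS plus immune complexes, against 10653 and 12997 with LPS. The groups did not overlap, but the log2 fold change was only -0.22 ± 0.26, with a 95% interval from -0.79 to 0.35. The next Stat3 probe set read 5092 and 5459 with LPS plus immune complexes, against 6343 and 5824 with LPS, again without overlap (-0.20 ± 0.29). The 2 dimmer Stat3 probe sets overlapped between the groups and had 0.27 ± 0.41 and -0.25 ± 0.54. In linear terms the interval of the brightest probe set runs from 0.578-fold to 1.28-fold.

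Jak2, the kinase attached to the receptors of interferon-gamma, GM-CSF and several other cytokines, showed the same order on both of its probe sets. The brighter read 5070.3 and 8662 with LPS plus immune complexes, against 9935 and 10203 with LPS, a log2 fold change of -0.60 ± 0.31 with a 95% interval from -1.28 to 0.08. The dimmer read 4008 and 4401 with LPS plus immune complexes, against 7518 and 4578 with LPS, a log2 fold change of -0.48 ± 0.33. Neither pair of groups overlapped, and the lowest unadjusted limma p of all 24 probe sets, 0.0783, belonged to the brighter one. For the brighter probe set the size rested on LPS_IC replicate 1. Without it the log2 fold change was -0.22, and without LPS_IC replicate 2 it was -0.99. For the dimmer one the readings with immune complexes were close, and LPS replicate 1 stood above the other 3 arrays.

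Il4ra, the interleukin-4 receptor alpha chain, signals through STAT6 and is itself a STAT3-induced gene in macrophages. It read 2663 and 3553 with LPS plus immune complexes, against 3532 and 4027 with LPS. The groups overlapped by a small margin, since the higher reading with immune complexes was just above the lower LPS reading. The log2 fold change was -0.29 ± 0.32, with a 95% interval from -0.9996 to 0.42. Without LPS_IC replicate 1 it was -0.09, and without LPS_IC replicate 2 it was -0.50. A separate Il4ra probe set had -0.23 ± 0.36. The dimmest Il4ra probe set, with no reading above 142.7, had -0.83 ± 0.84, the lowest value of all 24 probe sets and the one with the widest interval, from -2.67 to 1.003.

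Among the STAT3-induced genes, Nfil3 encodes a bZIP repressor that lowers Il12b in macrophages given interleukin-10. It read 5074 and 5671 with LPS plus immune complexes, against 6401 and 7016 with LPS. The groups did not overlap, and the log2 fold change was -0.32 ± 0.29, with a 95% interval from -0.94 to 0.31. Pim1, a serine/threonine kinase that supports survival, read 11080 and 11753 with LPS plus immune complexes, against 12753 and 13476 with LPS, without overlap and with a log2 fold change of -0.20 ± 0.25. Nfil3 and Pim1 were the genes whose difference between stimulations exceeded the gap between arrays of a group. For the other 8 of the 10 genes the larger of the gaps within a group exceeded the fold change. The dimmer Pim1 probe set separated by replicate number instead, with 3349 and 2091 with LPS plus immune complexes, against 3921 and 2327 with LPS.

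Sbno2, a co-repressor induced by interleukin-10 through STAT3, differed between replicate numbers and hardly between stimulations. Its brightest probe set read 997 and 2098 with LPS plus immune complexes, against 736 and 2096 with LPS. Replicate 2 was 2.11-fold above replicate 1 with LPS plus immune complexes and 2.85-fold with LPS. The next 2 Sbno2 probe sets showed the same arrangement, with readings of 953 and 2136 and of 928 and 1955 with LPS plus immune complexes, against 716 and 1968 and 719 and 2047 with LPS. The log2 fold change of the brightest was 0.21 ± 0.51, with a 95% interval from -0.91 to 1.33. Its sign followed the array left out. It was -0.31 without LPS_IC replicate 2 and -0.52 when LPS replicate 1 was left out. It was 0.74 without LPS_IC replicate 1 and 0.95 when LPS replicate 2 was left out. The dimmest Sbno2 probe set had -0.35 ± 0.60.

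**Figure D2:**
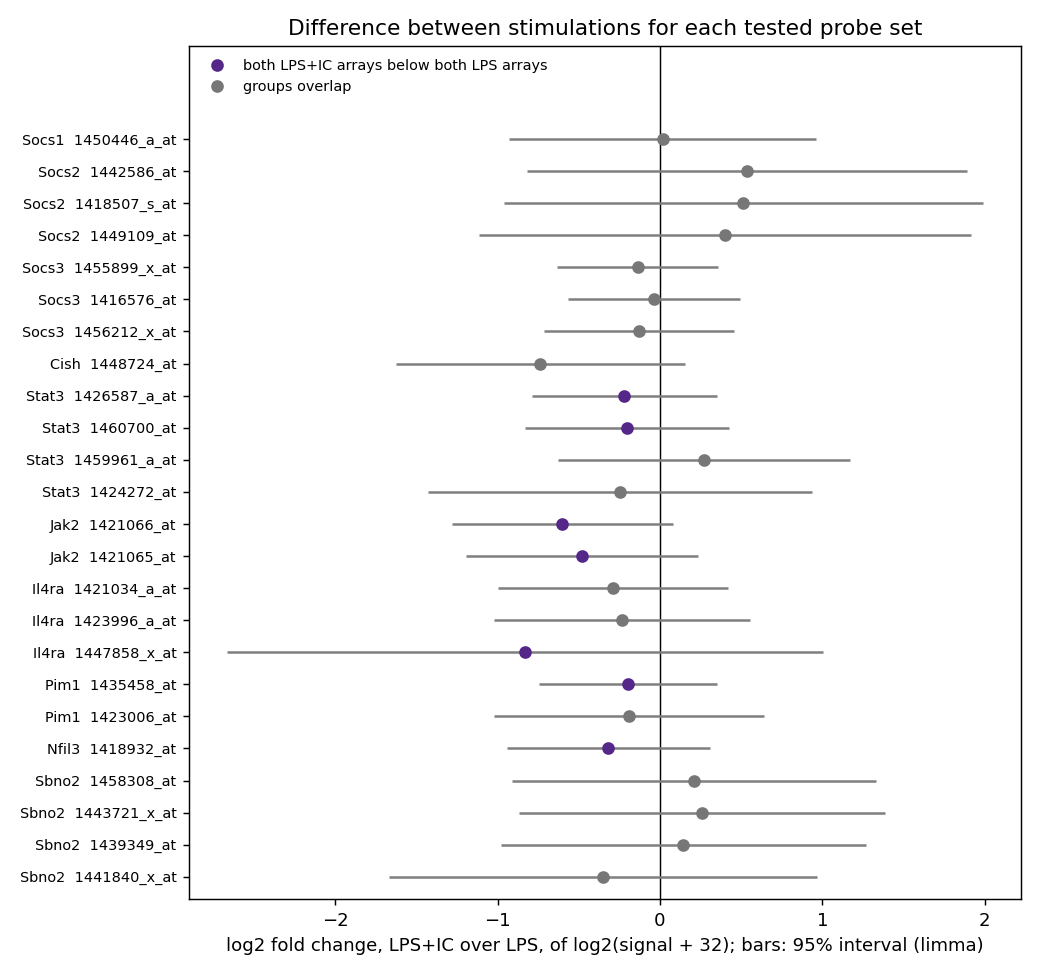
Log2 fold change of LPS plus immune complexes over LPS for the 24 tested probe sets (points), with limma's 95% interval (bars). Purple points mark the 7 probe sets on which both LPS plus immune complexes arrays read below both LPS arrays, grey points those with overlapping groups, and every interval includes 0.

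Most feedback genes had lower readings with immune complexes, as did most bright genes of the array. Of the 10 genes, 7 had a log2 fold change below 0, beside 5915 of all 12891 tested genes. On both LPS plus immune complexes arrays 4 of 10 (Stat3, Jak2, Pim1 and Nfil3) read lower than on both LPS arrays, beside 13.1% of all tested genes. None read higher on both, beside 13.2% of all tested genes. By probe set 7 of 24 read lower on both arrays, beside 12% of all tested probe sets, and 0 of 24 higher on both, beside 13.6%. Of the 3911 tested genes with a mean signal of 1000 or more, 2649 had a log2 fold change below 0. Among them 22.7% read lower on both arrays and 9.92% higher on both, and their median log2 fold change was -0.13. The feedback genes of that brightness were 9, all but Socs2. Of these, 7 were below 0, 4 read lower on both arrays and 0 higher on both, with a median of -0.22. With quantile normalization 3 of the 10 genes (Jak2, Il4ra and Nfil3) read lower on both arrays, beside 14.9% of all tested genes. In that setting 6 were below 0 and the median was -0.06, close to the -0.02 of all tested genes. Without the first LPS plus immune complexes array the median was -0.12 (all tested genes -0.03), and without the second -0.31 (0.14). Without LPS replicate 1 it was -0.37 (0.02), and without LPS replicate 2 -0.22 (0.08).

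**Figure D3:**
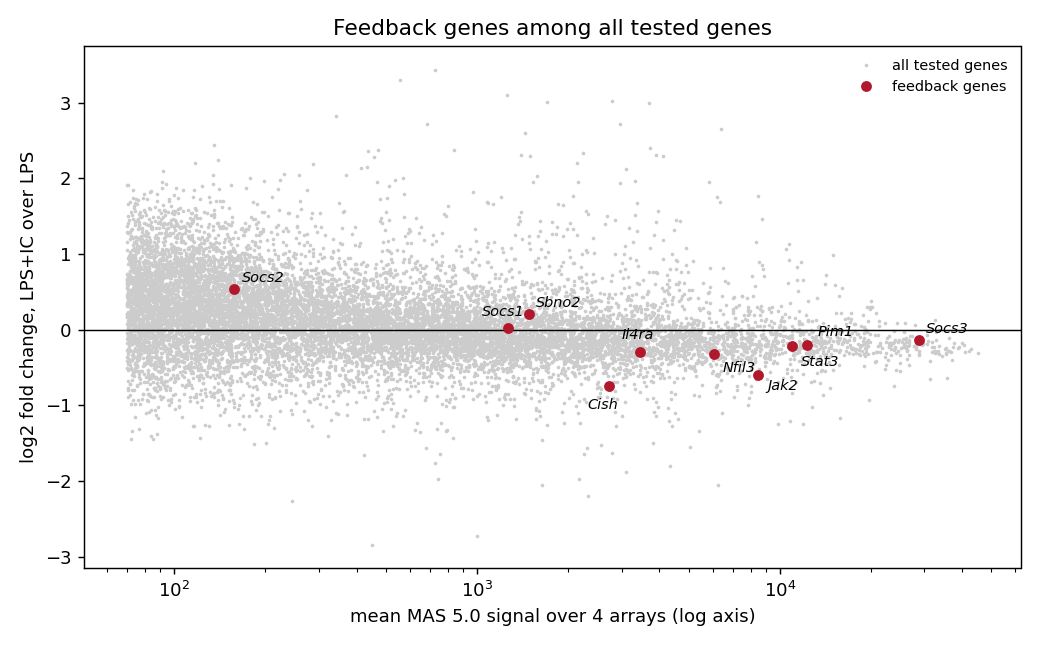
Log2 fold change of LPS plus immune complexes over LPS (vertical) against the mean signal over the 4 arrays (horizontal, log axis) for the 12891 tested genes (grey), with the 10 feedback genes in red. The bulk of the grey points lies above 0 at low signals and below 0 at high ones, and the feedback genes range from Socs2 at 0.54, the only dim one, to Jak2 and Cish at -0.60 and -0.74.

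The rest of the JAK-STAT pathway was read from a list of 62 genes, of which 55 were tested. By the same limma rule 0 of the 55 were called, in either direction, and 24 had a log2 fold change above 0 and 31 below, with a median of -0.13. Stat4, Osmr, Il4 and Il13 lay below the filter, and the remaining listed genes were not analysed here. The sub-lists differed in where their members lay.

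Of the 8 tested ligands, 6 lay above 0, with a median of 1.05. On both LPS plus immune complexes arrays 5 of 8 read higher than on both LPS arrays, beside 13.2% of all tested genes. The list was chosen with earlier results of these data known, so its share is not an independent comparison. The 1 ligand lower on both arrays was Il15 (-0.82 ± 0.30), named after its values were seen. Csf3, which encodes G-CSF, a cytokine that signals through STAT3, read 738 and 885 with LPS plus immune complexes, against 165 and 101 with LPS (log2 fold change 2.38 ± 0.44). Osm, oncostatin M, a cytokine of the gp130 family, read 2930.0 and 1784 with LPS plus immune complexes, against 361 and 523 with LPS (2.31 ± 0.41). Ifnb1, interferon beta, read 4574 and 1373 with LPS plus immune complexes, against 1253 and 477 with LPS (1.65 ± 0.57). In each group its replicate 1 was the higher reading. The gap of 1.71 between its arrays with immune complexes exceeded the fold change. Il10, named here after its values were seen because it drives STAT3 in macrophages, had 1.46 ± 0.29. Il6, another activator of STAT3, had -0.33 ± 0.51 and was likewise named after its values were seen. None of these passed the threshold. Without a block, limma called Csf3, Osm and Il10 with no filter on low signals, the same 3 and Ifnb1 without LPS replicate 1, and Osm alone without LPS replicate 2. It also called Csf3 with median centring, Osm at an adjusted p under 0.1, and Osm and Csf3 with the mean over probe sets. With median centring, and when either LPS array was left out, limma took every variance wholly from the trend. A gene's own spread between arrays did not enter its p in those fits.

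Of the 15 tested receptor chains 11 lay below 0, with a median of -0.21. Il6st, which encodes the shared receptor chain gp130, was the exception in size, with readings of 1080 and 1506 with LPS plus immune complexes, against 505 and 693 with LPS (1.07 ± 0.40). Il10ra, the ligand-binding chain of the interleukin-10 receptor, read 883 and 1448 with LPS plus immune complexes, against 2143 and 2193 with LPS (-0.92 ± 0.38). Ifnar1, a chain of the type I interferon receptor, had -0.71 ± 0.38.

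The kinases and STATs outside the feedback genes lay close to 0, from -0.38 to 0.06 over 7 tested genes, with a median of -0.17. The lowest were Stat5a (-0.38 ± 0.37), Jak3 (-0.19 ± 0.40) and Stat6 (-0.18 ± 0.34), and the groups overlapped for each of the 7, where 13.2% of all tested genes read higher on both arrays and 13.1% lower on both. All 13 other inhibitors and phosphatases were tested, with a median of -0.14 and members on both sides. Pias3, an inhibitor of STAT3 binding to DNA, had 0.96 ± 0.56, and Socs4 0.70 ± 0.38. Ptpn1, a phosphatase that acts on JAK2, read 6554 and 7517 with LPS plus immune complexes, against 10458 and 11632 with LPS (-0.65 ± 0.27).

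The 12 other STAT3-induced genes had a median of 0.03, with 6 above and 6 below 0. Those farthest from 0 were Lcn2, which encodes the iron-sequestering protein lipocalin 2, with 383 and 230.0 with LPS plus immune complexes, against 1518 and 766 with LPS (-1.75 ± 0.46), Saa3, an acute-phase protein, with -0.93 ± 0.36, and Bcl3, a nuclear I-kappa-B protein, with -0.85 ± 0.46. No sub-list was tested as a set.

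**Figure D4:**
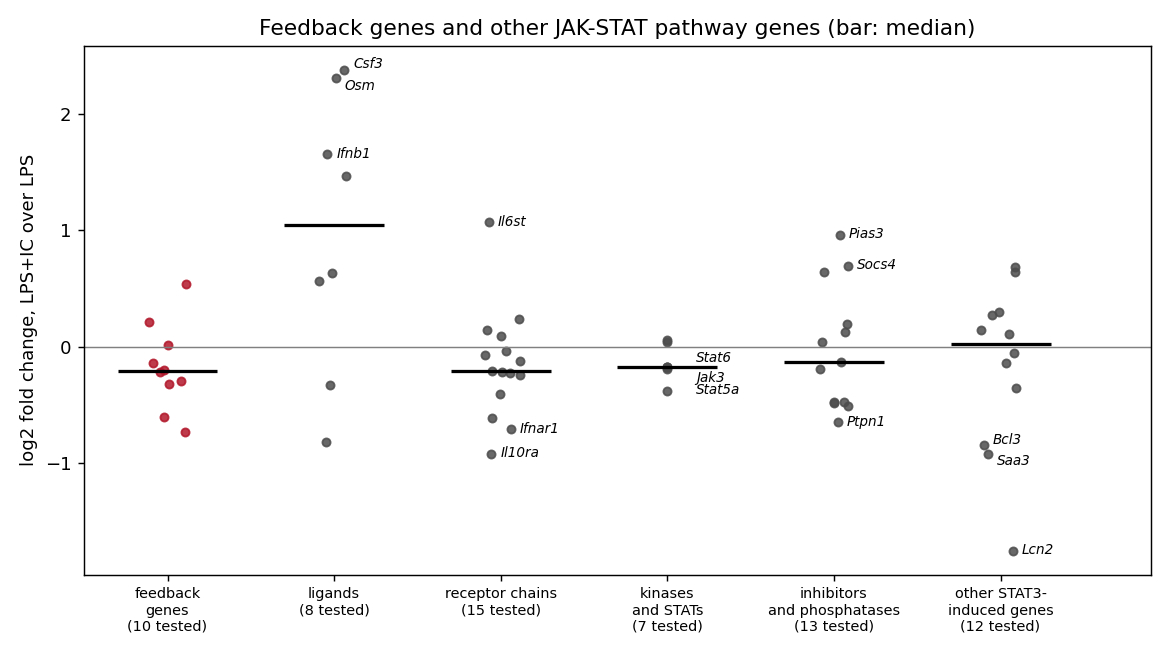
Log2 fold change of LPS plus immune complexes over LPS for the 10 feedback genes (red) and for 55 other JAK-STAT pathway genes in 5 groups (grey), with a bar at each median and the 3 genes farthest from 0 named in each grey group. The ligands have a median of 1.05, and the feedback genes one of -0.21.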

How the data were processed

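Biotin-labelled RNA was read on mouse Affymetrix arrays. The deposited values are intensities from MAS 5.0, run by the authors according to the submitters' processing notes, and their 2% trimmed mean was 500 on all 4 arrays. The array, not a read depth, limits precision, with 2 arrays a group. Groups came from sample titles. Probe sets with a mean signal under the 40th percentile (69.6) and 64 controls were left out. The stimulations were compared (LPS plus immune complexes over LPS) by limma 3.58.1 (R 4.3.3; lmFit, eBayes with trend, no block, two-sided) on log2(signal + 32), which understates changes of dim probe sets. Errors are limma's SE, and intervals are at 95%. The fit was tested on simulated arrays, and the outcome is not given here. Gene names came from GEO's array annotation (34945 probe sets name 1 gene), matched to RefSeq by gene ID. All feedback genes are named, and of each pathway sub-list the 3 genes farthest from 0. The members and lists were chosen with earlier results of these data known. Alternatives were other normalizations, pseudocounts of 1 and 100, other filters, no trend, a replicate block, each array left out, the mean over probe sets, no _x_at or _s_at probe sets, and, added after the data were seen, a signal of at least 1000.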

Additional observations from a re-analysis of the deposited data

How the results depend on the processing

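No feedback gene was called under 15 of the 16 alternatives. With the replicate block 1 of 10 was, Jak2 (log2 fold change -0.60, limma adjusted p = 0.0309), beside 3.03% of all tested genes in that fit, while Cish had an adjusted p of 0.0501. In that fit limma took every variance wholly from the trend, so a gene's own spread between arrays did not enter its p. The same held with median centring and when either LPS array was left out. By replicate number the Jak2 differences were -0.97 and -0.24, and those of Cish -0.75 and -0.72. The labels do not say that a replicate number marks a shared culture, and the deviations of same-numbered arrays correlated at 0.382. That block raised the calls over all tested probe sets to 404 higher and 267 lower, against 12 and 2 without it, and called 11 of 55 pathway genes, again beside 3.03%. Of these, 5 were higher (Il10, Osm, Csf3, Ifnb1 and Il6st) and 6 lower (Il15, Il10ra, Ptpn1, Bcl3, Lcn2 and Saa3). Over Jak2's alternatives the adjusted p ran from 0.0309 to 1. Calls over all probe sets were 0 higher and 0 lower with quantile normalization and without the variance trend, 33 and 14 with median centring, 6 and 0 with pseudocount 100, 68 and 21 with no filter, 4 and 0 with the 60th percentile and with a mean signal of 1000, and 32 and 5 at adjusted p under 0.1. Pseudocount 1 gave 20 higher. Leaving out an array gave 0 to 77 higher and 0 to 30 lower. Of the pathway genes 1 of 55 was called with median centring, 3 of 59 with no filter, 1 of 55 at adjusted p under 0.1, and 2 of 55 with the mean over probe sets. The calls over all probe sets given above were of 27022 tested with median centring and at adjusted p under 0.1. With no filter they were of 45037. Median centring moved every fold change by -0.20, and the feedback genes' median to -0.41. The sign turned for Socs1 with median centring (-0.18) and for Socs3 with quantile normalization (0.10). Leaving out an array gave log2 fold changes from -0.56 to 0.59 for Socs1, -0.25 to 1.15 for Socs2, -0.31 to 0.035 for Socs3 and -0.52 to 0.95 for Sbno2. Where a cause is not given by the setting itself, it was not tested. Values of the other 6 feedback genes stayed below 0 under every alternative run. With 2 arrays a group, the SE of the 10 genes ran from 0.23 to 0.62 on the log2 scale, which limits what could be called.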
